A study of Homo sapiens with 6 samples.

Results

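The smooth muscle contractile genes described here are ACTA2, the smooth muscle alpha actin gene, and 9 genes for related actin, myosin and regulatory proteins: ACTG2, TAGLN, CNN1, MYH11, MYL9, MYLK, CALD1, TPM1 and TPM2. They are 10 of the 60107 gene rows in the deposited count table, found by matching gene symbols to Ensembl IDs. ACTA2 was chosen by its counts in this contrast, being much higher without glutamine, so its difference between the groups is given as a description, with no test. The other 9 were chosen for their function in smooth muscle, with earlier results of these data known.

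RNA came from H9, a widely used line of human embryonic stem cells, taken through a 10-day protocol toward nephron progenitor cells, which form the filtering units of the kidney. The labels give all 6 libraries as day 9. For 3 of them the medium was complete, and for 3 it lacked glutamine from the start of the protocol until collection. The column headings of the table read as days 0 and 9, but each sample's description ties the day 0 headings to glutamine and the day 9 headings to its absence, and every direction below rests on that. The labels do not say that the replicates were separate cultures, so p-values measure only the spread between these libraries, which may be technical. Levels are given as CPM, a gene's counts relative to the scaled total of its library, unless another unit is named.

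Smooth muscle contracts when myosin pulls on actin filaments. A rise in calcium activates the myosin light chain kinase encoded by MYLK, which phosphorylates the regulatory light chain encoded by MYL9, while tropomyosins, caldesmon and calponin lie along the actin filament and set its access to myosin. Many of these genes are activated by serum response factor, SRF, which binds a DNA motif named the CArG box together with the cofactors myocardin or the myocardin-related factors MRTFA and MRTFB. ACTA2 is not restricted to smooth muscle: myofibroblasts and other stromal cells also express it, whereas MYH11, the smooth muscle myosin heavy chain, marks differentiated smooth muscle more narrowly.

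The sequence before the start of the smooth muscle form of ACTA2 is shown because ACTA2 stands at the centre of the comparison and this window holds sites of the CArG class. The RefSeq promoter table (GRCh38.p14) gives the 250 bases before the start at chr10:88952774-88953023 on the minus strand. Written 5′ to 3′ along the gene, with the CArG-class sites in capitals, the window reads as follows.
ACTA2: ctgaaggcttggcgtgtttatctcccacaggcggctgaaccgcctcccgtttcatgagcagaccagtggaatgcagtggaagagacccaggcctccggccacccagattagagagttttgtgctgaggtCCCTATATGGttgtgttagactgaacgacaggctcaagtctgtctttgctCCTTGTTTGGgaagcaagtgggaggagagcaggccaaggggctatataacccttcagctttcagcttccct

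The CArG box was searched as 2 C, then 6 bases that are each A or T, then 2 G, a class that covers both strands. A looser form allowed 1 of the 6 core bases to be G or C, and the forms do not overlap in a single site. Both ACTA2 sites are of the looser form, 121 to 112 and 71 to 62 bases before the start. The same search in the other members and actins gave the sites below, shown with 10 bases on each side and the site in capitals.
ACTG2: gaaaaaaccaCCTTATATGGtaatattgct
ACTG2: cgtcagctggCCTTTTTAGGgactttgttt
MYLK: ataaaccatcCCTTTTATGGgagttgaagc
CALD1: ccagaggtccCCTAAAGAGGaatacattct
ACTC1: gcgaaggggaCCAAATAAGGcaaggtggca
ACTA1: tgcccaacacCCAAATATGGctcgagaagg
ACTG1: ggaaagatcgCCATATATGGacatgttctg

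The sites of ACTG2, MYLK, ACTC1, ACTA1 and the cytoplasmic actin ACTG1 shown are of the strict form, and that of CALD1 is of the looser form. ACTC1 had a further 3 looser sites in the window and ACTA1 a further 2. Promoter windows were matched for 7 of the 10 members, 12 windows in all, since a gene can have several starts. TAGLN, MYH11 and MYL9 were not matched. A strict CArG box was present in 2 of these 12 windows and in 407 of the 35116 windows in the table, or 1.16%. Either form was present in 4 of the 12 and in 7.04% of all windows. At least 2 sites of either form were in 2 of the 12, those of ACTA2 and ACTG2, and in 0.587% of all windows. The windows of CNN1, TPM1 and TPM2 held none of either form. A second window of ACTA2, at chr10:88991338-88991587, and the other windows of CALD1 also held none. These matches describe the letters of the windows only.

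The 6 actin genes encode nearly the same protein, so whether reads of 50 bases can tell them apart bears on every value below. The last 60 coding bases, stop codon included, are shown for each in GENCODE 29, with capitals where a base differs from ACTA2 at the same position counted back from the stop.
ACTA2: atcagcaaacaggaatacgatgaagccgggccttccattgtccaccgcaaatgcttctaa
ACTG2: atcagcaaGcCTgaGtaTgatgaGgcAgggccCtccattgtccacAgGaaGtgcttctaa
ACTC1: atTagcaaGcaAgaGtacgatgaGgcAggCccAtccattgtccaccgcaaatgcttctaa
ACTA1: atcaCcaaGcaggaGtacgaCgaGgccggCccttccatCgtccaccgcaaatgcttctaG
ACTB: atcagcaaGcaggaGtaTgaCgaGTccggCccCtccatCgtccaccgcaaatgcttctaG
ACTG1: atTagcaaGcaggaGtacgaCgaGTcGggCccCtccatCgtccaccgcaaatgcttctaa

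Between 8 and 11 of the 60 bases differ from ACTA2 in each of the other 5 genes. Over the last 990 coding bases, compared without gaps, identity to ACTA2 was 85.4% for ACTG2, 86.6% for ACTC1, 85.8% for ACTA1, 83.1% for ACTB and 83.2% for ACTG1. No run of 50 bases in the 1747 of ACTA2's protein-coding transcripts occurred in a transcript of another gene, on the annotated strand. For ACTG2 2 of 2781 runs did, both in POTEE, a gene with an actin-like segment, and for ACTC1 10 of 3645. The shares were higher for ACTB at 6.66%, ACTG1 at 2.68% and ACTA1 at 1.81%, and these 3 shared 21, 10 and 11 runs with another actin, which ACTA2, ACTG2 and ACTC1 did not. The shares were 0% for TAGLN, CNN1, MYL9, CALD1 and TPM2, and at most 1.2% for MYH11, MYLK and TPM1. How the authors counted reads with several alignments, and with which strand setting, is not given in the sources used here, while the labels name a stranded library kit. Exons of ACTA2 overlap those of ACTA2-AS1 and FAS on the opposite strand. ACTA2-AS1 had 14, 21 and 22 counts with glutamine and 32, 104 and 99 without, and FAS had 163 to 293 with and 210 to 227 without. TAGLN, MYH11, MYLK and TPM1 also overlap genes on the opposite strand.

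The libraries held 78220507 to 84746566 counts each, and the 10 genes took 0.0746% to 0.0869% of them with glutamine and 0.101% to 0.154% without. Replicate 1 with glutamine stood apart from its group over the whole transcriptome: Pearson's r over genes (not independent replicates) was 0.976 with each of replicates 2 and 3 of that group, against 0.991 to 0.993 with those grown without glutamine. Counts of called genes are therefore also given without it, as are the values of named genes that it moves most. Over all 22613 genes kept, edgeR's quasi-likelihood test gave 1 gene a Benjamini-Hochberg adjusted p under 0.05, or 0.00442% of them. Without that library the same test called 9573 of 23164 genes. The labelled cell type was checked on 10 nephron progenitor markers: all 10 were kept by the filter on low counts, WT1 and SALL1 were above 100 CPM in every library, and HOXD11 was at 0 or 1 count in replicates 2 and 3 with glutamine.

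The muscle actins had the highest fold differences among the contractile genes. ACTA2 (ENSG00000107796) is on the minus strand of chromosome 10, from 88935074 to 88991339 (GRCh38, GENCODE 29). Its level with glutamine was 13.4, 12.7 and 16.2 CPM in replicates 1 to 3, and without glutamine 46.6, 101 and 94.4 CPM. The lowest library without glutamine was 2.87 times the highest library with it. Replicate 1 with glutamine sat inside its own group for ACTA2, and replicate 1 without glutamine was at less than 0.5 times the level of the other 2 of its group. The mean with glutamine was 14.1 ± 1.85 CPM and the mean without was 80.8 ± 29.8 CPM (SD, n = 3). These means differ 5.72-fold, and the fitted log2 fold change was 2.51 (SE 0.29), or 2.48 without replicate 1 with glutamine.

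ACTG2, the gamma smooth muscle actin of gut and bladder muscle, had a lower per-length level than ACTA2 in both groups. Its levels were 4.98, 2.01 and 2.80 CPM with glutamine and 16.5, 38.1 and 40.1 CPM without. The groups did not overlap, and replicate 1 with glutamine was the highest of its group. The log2 fold change was 3.27 (SE 0.44, adjusted p 0.068 by edgeR). ACTG2 thus did not pass the 0.05 threshold, and none of the 9 genes other than ACTA2 did.

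**Figure D1:**
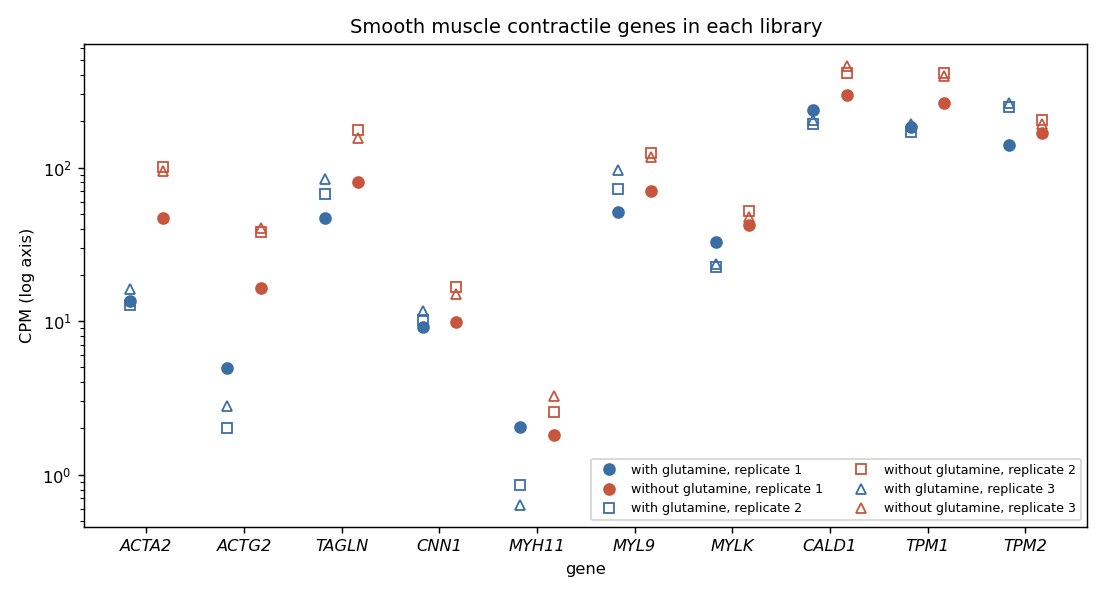
CPM of each contractile gene (log axis) in the 3 libraries with glutamine (blue) and the 3 without (red), with filled circles for replicate 1. ACTA2 and ACTG2 are the genes with the widest gaps between the groups, at 2.87 and 3.32 times from the highest library with to the lowest without, and TPM2 is the gene whose mean is lower without glutamine.

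The remaining actins separate into muscle and cytoplasmic types. ACTC1, the cardiac muscle actin, which is also made in developing smooth muscle, was at 29.3, 46.3 and 53.0 CPM with glutamine and 80.4, 180 and 158 CPM without. All libraries without were above all with. Its log2 fold change was 1.70 (SE 0.33, adjusted p 0.0682 by edgeR). ACTA1, the skeletal muscle actin, was near the lower end of detection, at 0.222 to 0.954 CPM with and 0.860 to 1.85 CPM without, and its groups overlapped.

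The cytoplasmic actins ACTB and ACTG1, which build the cytoskeleton of every cell, did not separate by group. ACTB was at 1373, 1726 and 1873 CPM with glutamine and 1664 to 1753 CPM without, a log2 fold change of 0.04 (SE 0.12), whose sign was negative under upper quartile scaling and without replicate 1 with glutamine. ACTG1 was at 3140 to 4205 CPM with and 3292 to 3523 CPM without, a log2 fold change of -0.14 (SE 0.12, adjusted p 0.434 by edgeR). Without replicate 1 with glutamine ACTG1 was called lower, at -0.26 (adjusted p 0.0155 by edgeR).

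Per length, the muscle actins stayed a small part of all actin transcripts. Counts per kilobase of merged exon, scaled to the same total in each library, allow levels to be compared between genes. On this per-length scale the 4 muscle actins together were at 67.5 ± 10.9 with glutamine and 290 ± 105 without (SD, n = 3). They made up 0.875% ± 0.0549 of the 6 actins with glutamine and 3.90% ± 1.34 without. ACTA2 and ACTC1 were the larger muscle actins in every library. ACTA2 took 31.4% ± 4.58 of the muscle actin level with glutamine and 40.8% ± 0.39 without. The per-length share of ACTA2 among the muscle actins was thus nearly the same in the 3 libraries without glutamine, from 40.4% to 41.1%, although their summed muscle actin level ran from 170 to 366. These shares rest on merged exons, which span 2976 bases for ACTA2 and 4602 for ACTC1. The longest transcripts span 1349 and 3694 bases, a larger step down for ACTA2, so its share depends on the length used.

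**Figure D2:**
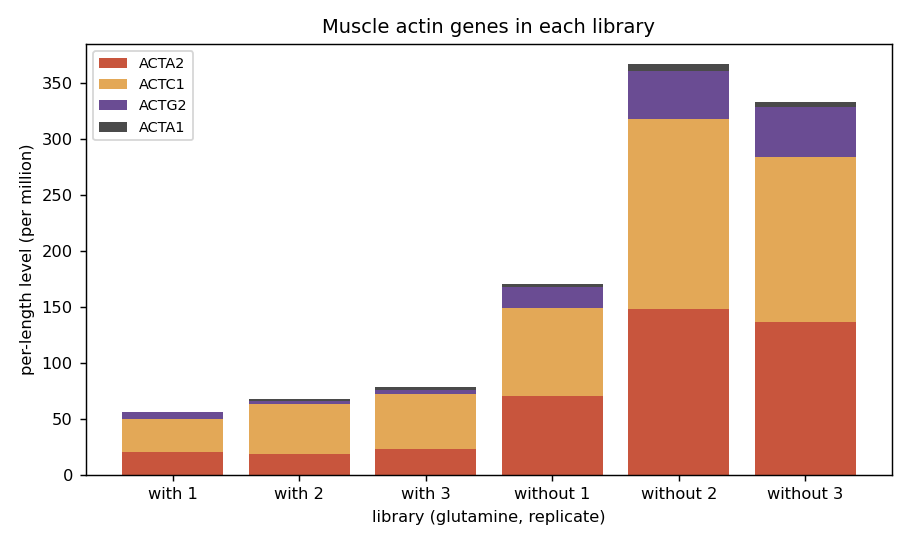
Stacked bars give the per-length level (counts per kilobase of merged exon, scaled to the same total in each library) of the 4 muscle actin genes in each library. The summed level is 56.4 to 78.1 with glutamine and 170 to 366 without, and ACTA2 and ACTC1 make up most of each bar.

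Genes for filament-binding proteins gave smaller differences. TAGLN, which encodes the actin cross-linker transgelin or SM22, was at 46.6, 67.0 and 84.1 CPM with glutamine and 80.2, 176 and 155 CPM without. Replicate 1 without glutamine lay just under the highest library with it, so the groups overlapped. The log2 fold change was 1.06 (SE 0.32, adjusted p 0.0948 by edgeR).

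CALD1 encodes caldesmon, which restrains myosin's access to actin. It was at 237, 192 and 203 CPM with glutamine and 295, 413 and 459 CPM without, with no overlap. The log2 fold change was 0.88 (SE 0.17, adjusted p 0.0682 by edgeR).

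CNN1, which encodes calponin 1, a binder of actin in differentiated smooth muscle, was at 9.13, 10.2 and 11.7 CPM with glutamine and 9.90, 16.6 and 14.9 CPM without. Its groups overlapped, and its log2 fold change was 0.42 (SE 0.20, adjusted p 0.206 by edgeR). CALD1 transcripts include forms made outside muscle, and gene-level counts do not separate the forms of any of the 10 genes.

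The tropomyosin genes differed from each other. TPM1 was at 184, 170 and 192 CPM with glutamine and 261, 411 and 397 CPM without. All libraries without were above all with, and replicate 1 with glutamine lay with its own group. The log2 fold change of TPM1 was 0.97 (SE 0.17, adjusted p 0.068 by edgeR).

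TPM2 was at 141, 249 and 263 CPM with glutamine and 169, 205 and 192 CPM without. It is the member with a log2 fold change below 0, at -0.21 (SE 0.22, adjusted p 0.548 by edgeR). Replicate 1 with glutamine was below all libraries without. Without that library the log2 fold change of TPM2 was -0.44 (adjusted p 0.00275 by edgeR), and the gene was called lower.

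The myosin and myosin kinase genes are described next. MYH11 was at 2.05, 0.858 and 0.636 CPM with glutamine and 1.81, 2.55 and 3.25 CPM without. Per length it was the lowest of the 10 genes in both groups, at 0.328 ± 0.221 with and 0.687 ± 0.181 without (SD, n = 3). Replicate 1 with glutamine lay among the libraries without, and the groups overlapped. The log2 fold change was 1.09 (SE 0.43, adjusted p 0.147 by edgeR) with all libraries, and 1.76 (adjusted p 0.001 by edgeR) without that library.

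MYLK was at 32.6, 22.5 and 23.4 CPM with glutamine and 42.0, 51.9 and 47.8 CPM without. Its groups did not overlap, and the log2 fold change was 0.85 (SE 0.16, adjusted p 0.068 by edgeR). MYL9, the smooth muscle regulatory light chain, was at 51.0, 72.2 and 95.8 CPM with and 70.3, 125 and 118 CPM without. Its groups overlapped, with a log2 fold change of 0.52 (SE 0.28, adjusted p 0.251 by edgeR).

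On the per-length scale TPM2 was the most abundant of the 10 genes in both groups, at 295 ± 83.1 with glutamine and 254 ± 20.3 without. MYL9, CALD1, TAGLN and TPM1 came next with glutamine, at 114 ± 31.0, 94.8 ± 13.2, 73.9 ± 18.6 and 62.5 ± 3.63. MYL9 and CALD1 differed by less than the SD of MYL9, and TAGLN and TPM1 by less than the SD of TAGLN. Without glutamine CALD1, MYL9, TAGLN, TPM1 and ACTA2 lay between 118 and 172 with SDs of 26.0 to 54.0, so their order cannot be told apart. ACTA2 ranked sixth in both groups, at 20.9 ± 2.15 and 118 ± 42.0. The order depends on the length used: with the longest transcript in place of merged exons, the mean without glutamine was 384 for TPM2, 291 for CALD1, 289 for TPM1, 192 for ACTA2, 133 for TAGLN and 118.5 for MYL9. On merged exons ACTG2, CNN1 and MYLK were under ACTA2, at 3.81 to 15.8 with glutamine and 9.31 to 36.0 without.

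Read as a list, 9 of the 10 genes had a log2 fold change above 0, with a median of 0.93 over all 10 and 0.88 over the 9 other than ACTA2, beside a median of 0.0012 over all genes kept. Of those 9, 0 passed the edgeR threshold. An adjusted p under 0.1 with a higher level was given to 5 of them, and to 7.3% of all genes kept. Of the 9, 4 genes, ACTG2, MYLK, CALD1 and TPM1, were higher in every library without glutamine than in any with it. Over all genes kept, 17.3% were higher in that way and 16.9% lower. DESeq2, run as an alternative, called 6 of the 9, all higher: ACTG2, TAGLN, MYH11, MYLK, CALD1 and TPM1, with adjusted p of 0.0415 or below. Among all genes with an adjusted p from DESeq2, 7.54% were called higher. Without replicate 1 with glutamine edgeR called the same 6 genes higher and TPM2 lower, where 22.3% of all genes were called higher and 19% lower. CNN1 and MYL9 were called in neither.

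**Figure D3:**
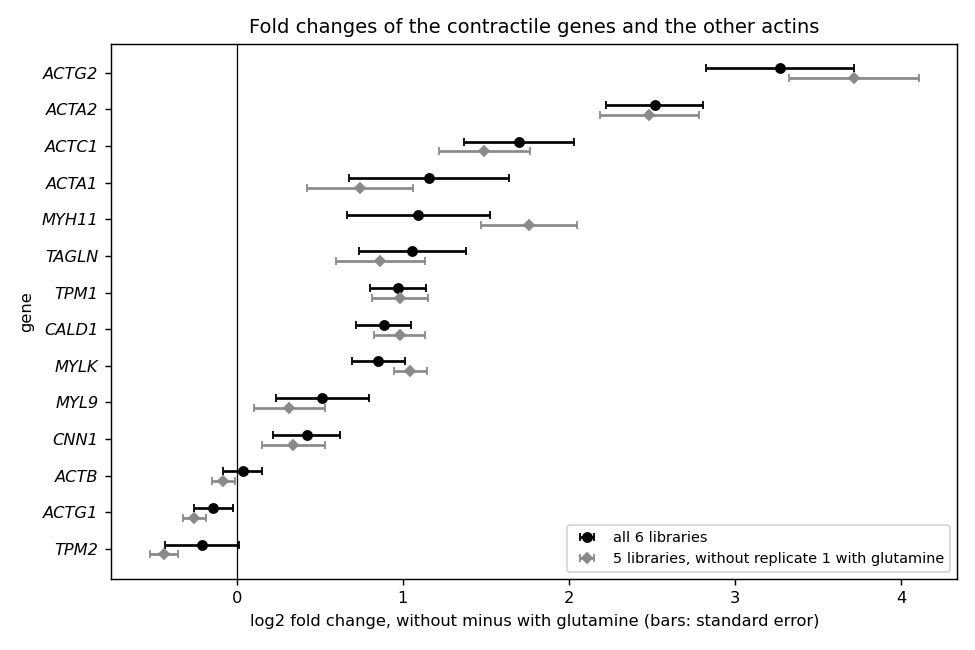
Log2 fold change, without minus with glutamine, of the contractile genes and the other actins, with its standard error, from all 6 libraries (black) and from 5 libraries with replicate 1 with glutamine left out (grey). ACTG2 and ACTA2 lie furthest to the right at 3.27 and 2.51, the cytoplasmic actins lie near 0, and MYH11 and ACTG2 lie further from 0, at 1.76 and 3.71, when the library is left out.

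Replicate 1 without glutamine was the lowest of its group for 10 of the 10 genes. It was at least 0.5 on the log2 scale below the mean of replicates 2 and 3 for 8 of them, a step chosen after the values were seen, whereas 4.52% of all genes kept were that far below. The log2 difference was -1.07 for ACTA2, -1.24 for ACTG2, -1.04 for TAGLN and -1.06 for ACTC1, and -0.23 for TPM2 and -0.25 for MYLK. Genes of 1 library share that library, so these are not separate observations. In the group with glutamine replicate 1 was the lowest for 4 of the 10 genes and the highest for 4.

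The position of replicate 1 with glutamine was measured on the log2 CPM scale from the mean of replicates 2 and 3 with glutamine, set to 0, to the mean of the libraries without, set to 1. Among 2078 genes more than 2-fold higher without glutamine than in replicates 2 and 3 with it, the median position of replicate 1 was 0.84, and 12.5% lay nearer their own group. Apart from ACTA2, 3 of the contractile genes differed more than 2-fold along that axis: ACTG2 had replicate 1 at 0.29, MYLK at 0.49, close to the midpoint of 0.5, and MYH11 at 0.84. These 3 genes are too few to be read against that share. ACTA2 was at -0.04, which belongs to the values it was chosen by. ACTC1 was at -0.54, below both other libraries of its group.

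The genes whose pattern over the 6 libraries was most like that of ACTA2 were HBEGF, ANKRD1, ANXA1, ADM, TPM1 and NPPB, with Pearson's r of log2 CPM from 0.9956 down to 0.9887. They lead 940 other genes with a mean of at least 5 CPM and an SD of log2 CPM of at least 0.5. Both limits were set over all 6 libraries, which favours genes that differ between the groups. HBEGF, ADM, NPPB and ACTG2 were under 5 CPM in every library with glutamine and passed only through the group without it. The ranks therefore follow in part from the filter and from how ACTA2 was chosen. CNN1, MYL9, MYH11 and TPM2 did not pass the filter and have no rank. The points share libraries and fall into the study's groups, so r is given as a description. HBEGF, which encodes a membrane-bound growth factor of the EGF family, was at 4.17 to 4.39 CPM with glutamine and at 8.61, 16.4 and 15.6 CPM without. ANKRD1, a muscle ankyrin repeat protein and a target of the YAP and TEAD factors, was at 12.8 to 15.3 CPM with and at 33.2, 76.2 and 65.3 CPM without. ADM, the adrenomedullin gene, was at 3.12 to 3.42 CPM with and 8.29 to 12.8 CPM without. Of the other contractile genes, ACTG2 ranked 19th of the 940, CALD1 22nd, MYLK 53rd and TAGLN 69th.

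**Figure D4:**
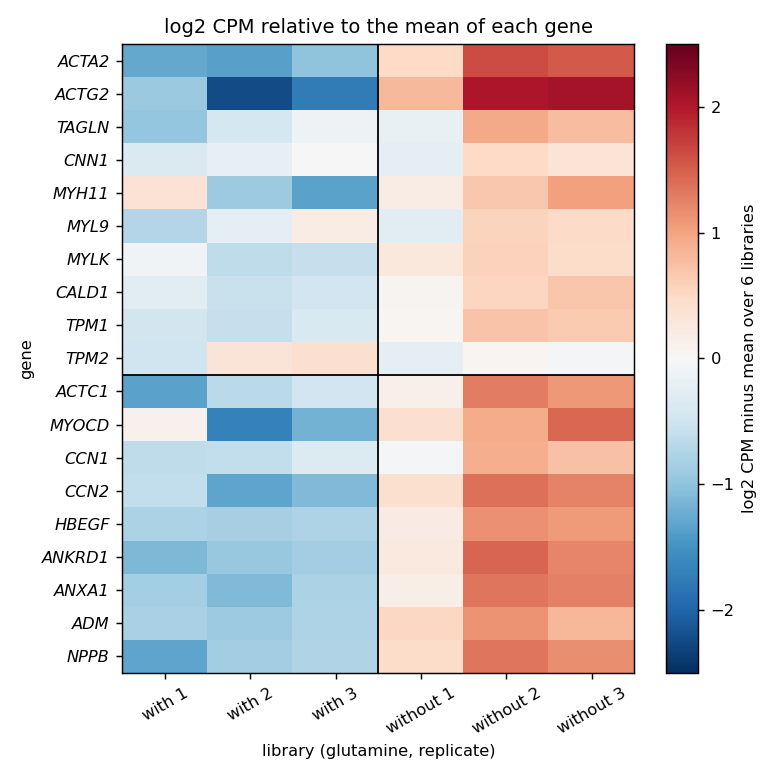
Log2 CPM of each gene in each library minus the gene's mean over the 6 libraries, for the 10 contractile genes (above the line), 4 related genes picked after their values were seen (ACTC1, MYOCD, CCN1, CCN2) and the other genes most like ACTA2. Replicate 1 without glutamine is paler than replicates 2 and 3 in most rows, and replicate 1 with glutamine stays low for ACTA2, ACTC1, ANKRD1 and HBEGF but not for MYH11 or MYOCD.

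The transcription factors that act on these genes were next examined. Shares over all genes are given first, for this list and those that follow. Of all genes kept, 17.3% were higher and 16.9% lower without overlap. DESeq2 called 7.54% of genes with an adjusted p higher, and 14% in either direction. Without replicate 1 with glutamine edgeR called 22.3% higher and 19% lower. A count near these shares is no result about a list. Of 16 genes for SRF, its cofactors and related regulators, 0 passed the edgeR threshold, 5 lay above and 2 below with no overlap of the groups, and the median log2 fold change was 0.09. DESeq2 called 4 higher and 1 lower. Without replicate 1 with glutamine edgeR called 5 higher and 4 lower. SRF itself was at 76.5 CPM with glutamine and 79.4 CPM without, a log2 fold change of 0.05 (SE 0.07). MRTFA and MRTFB had log2 fold changes of 0.16 (SE 0.09) and 0.06 (SE 0.10). MYOCD, which encodes myocardin, was low but separated by group. Its mean was 1.11 ± 0.754 CPM with and 3.62 ± 1.27 CPM without (SD, n = 3), and its log2 fold change was 1.69 (SE 0.46, adjusted p 0.0829 by edgeR, DESeq2 adjusted p 0.0013). Leaving out replicate 1 with glutamine put MYOCD at 2.40 (adjusted p 0.000454 by edgeR). Other genes of the list with large differences were KLF5 at 0.65 and ELK4, which encodes another partner of SRF, at -0.44.

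Of 12 genes known to respond to SRF or to YAP and TEAD, 0 passed the edgeR threshold, 7 were higher without overlap, and the median log2 fold change was 0.31. DESeq2 called 6 higher, and edgeR without replicate 1 with glutamine called 7 higher and 1 lower. CCN2, a matricellular protein gene, was at 42.6 ± 11.1 CPM with glutamine and 176 ± 56.5 CPM without, a log2 fold change of 2.04 (SE 0.29, adjusted p 0.068 by edgeR). CCN1, of the same family, had a log2 fold change of 1.11 (SE 0.24) and IER3 of 0.81 (SE 0.15). Among the serum-induced transcription factors of the list, FOS was at 0.30 and JUNB at 0.59, both with no overlap. FOSB was at -0.10, EGR1 at 0.29, EGR2 at -0.50 and EGR3 at -0.67, and their groups overlapped. Leaving out replicate 1 with glutamine put EGR1 at 0.62 (adjusted p 0.000696 by edgeR) and EGR3 at -0.98 (adjusted p 0.0375 by edgeR).

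Of 16 genes of the TGF-beta and Notch pathways, which induce smooth muscle genes in mesenchyme, 0 passed the edgeR threshold, 5 were higher and 2 lower without overlap, and the median was 0.32. DESeq2 called 4 of these genes higher, and edgeR called 9 higher and 4 lower once replicate 1 with glutamine was left out. TGFB2, a TGF-beta ligand, was at 11.5 ± 3.43 CPM with and 25.4 ± 7.47 CPM without, a log2 fold change of 1.15 (SE 0.29, adjusted p 0.077 by edgeR). TGFBI, a gene induced by TGF-beta, had a log2 fold change of 0.96 (SE 0.24). JAG1, a Notch ligand, was at 289 ± 313 CPM with and 826 ± 94.0 CPM without, with replicate 1 with glutamine at 650.2 CPM and replicates 2 and 3 at 118 and 98.8 CPM. Its log2 fold change was 1.51 (SE 0.69), and 2.93 (adjusted p 2.21e-07 by edgeR) without that library. LTBP2, which encodes a matrix protein, overlapped at 0.93 (SE 0.68), with 17.4 CPM in that library and 3.02 and 2.58 CPM in the others with glutamine. Without that library LTBP2 was at 2.39 (SE 0.16, adjusted p 4.25e-06 by edgeR).

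Genes for the nonmuscle relatives of the contractile proteins were also compared. Of 12 such genes, 0 passed the edgeR threshold, 6 were higher without overlap and 0 lower, and the median was 0.35. DESeq2 called 6 higher, and edgeR called 7 higher and 1 lower without replicate 1 with glutamine. MYH9, a nonmuscle myosin heavy chain, had a log2 fold change of 0.40 (SE 0.07), CNN3 of 0.45 (SE 0.10), MYL6 of 0.51 (SE 0.18) and MYL12B of 0.50 (SE 0.15). CNN2 had -0.03 (SE 0.11). MYH14 had 0.84 (SE 0.38), and 1.44 (adjusted p 0.000219 by edgeR) without that library.

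A further 25 genes of the smooth muscle cytoskeleton, calcium handling and adhesion gave a mixed picture. The filter kept 23, of which 0 passed the edgeR threshold, 9 were higher and 2 lower without overlap, with a median of 0.29. DESeq2 called 6 higher and 1 lower, and edgeR without replicate 1 with glutamine called 10 higher and 2 lower. PLN, which encodes phospholamban, an inhibitor of the calcium pump of the sarcoplasmic reticulum, had 25, 5 and 2 counts with glutamine and 107, 172 and 178 without, a log2 fold change of 3.80 (SE 0.56, adjusted p 0.068 by edgeR). KCNMB1, a subunit of the calcium-activated potassium channel of smooth muscle, had a log2 fold change of 1.21 (SE 0.42) and CARMN, a noncoding RNA of smooth muscle, of 0.98 (SE 0.33). Without replicate 1 with glutamine CARMN was at 1.52 and PLN at 5.36, both called. PGM5, at 8.68 ± 11.5 CPM with and 27.9 ± 1.87 CPM without, had replicate 1 with glutamine at 0.91 on the axis between groups. Its log2 fold change was 1.68 (SE 0.86), and 3.79 without that library, where it was called. LMOD1, leiomodin, was at -0.41 (SE 0.21) and DES, desmin, at 0.29 (SE 0.20), and both overlapped. Without that library they were at -0.63 (adjusted p 0.000282 by edgeR) and 0.51 (adjusted p 0.0172 by edgeR).

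**Figure D5:**
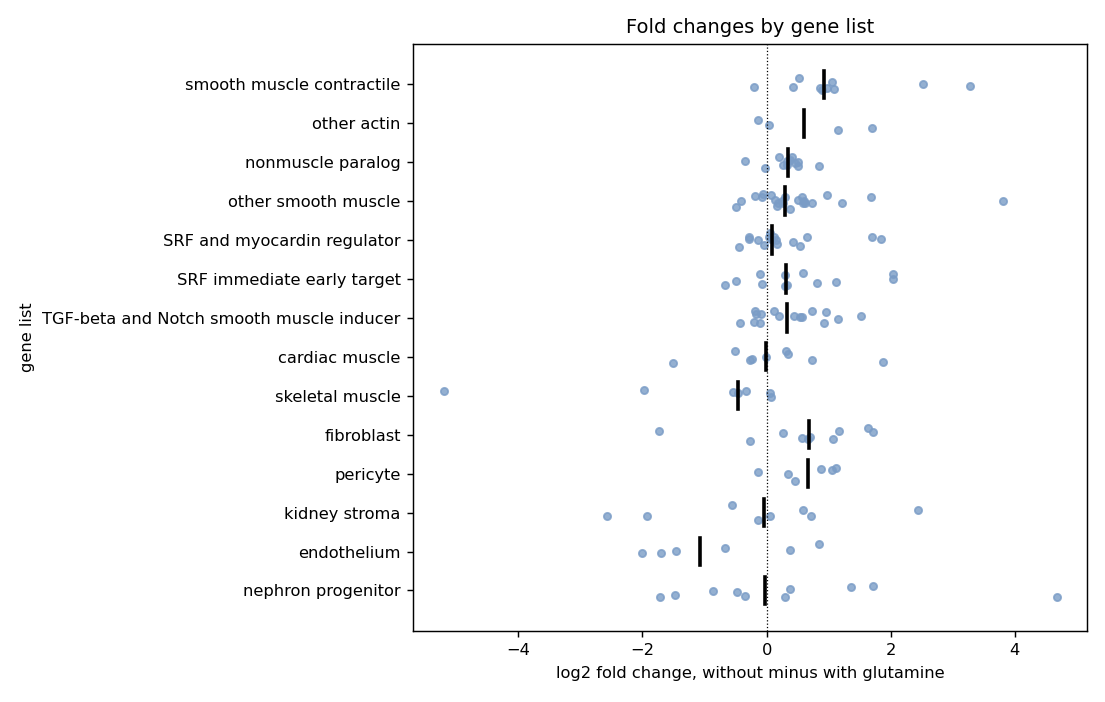
Each point is the log2 fold change, without minus with glutamine, of 1 gene kept by the filter, by gene list, with the list's median as a bar and the median of all genes kept as a dotted line. The contractile genes have a median of 0.93, and the SRF and myocardin regulators lie close to 0 with a median of 0.09.

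Markers of other cells that can express ACTA2 were read over the same libraries, since in bulk RNA more cells of a type and more RNA per cell cannot be told apart. Over all genes kept, 17.3% were higher and 16.9% lower without overlap. Without replicate 1 with glutamine, 22.3% of all genes were called higher and 19% lower. Fibroblast markers were all 10 kept, with 5 higher without overlap, 0 lower and a median log2 fold change of 0.69. Without replicate 1 with glutamine edgeR called 8 of them higher and 1 lower. Their summed level was 1710 to 2766 CPM with glutamine and 2448 to 3746 CPM without. COL3A1 was at 312 ± 248 CPM with and 1017 ± 293 CPM without, DCN and THY1 had log2 fold changes of 1.64 and 1.16, and FAP had -1.74. Without replicate 1 with glutamine COL3A1 moved from 1.71 to 2.59, DCN to 2.87, THY1 to 1.67 and FAP to -2.15. LUM had 1.08 with no overlap and 1.03 without that library. The position of replicate 1 between the groups ran from -0.24 for COL1A2 and -0.13 for LUM to 1.35 for PDGFRA over the fibroblast markers, and from -1.98 for CSPG4 and -1.11 for NDUFA4L2 to 1.01 for ABCC9 over the pericyte markers. DCN was at 5.48, 1.02 and 1.17 CPM with glutamine and 6.98 to 9.03 CPM without. Of 8 pericyte markers 6 were kept and 3 were higher without overlap, with a median of 0.67, and 4 were called higher without replicate 1 with glutamine. The pericyte sum was 64.3 to 96.2 CPM with and 105 to 110.0 CPM without. RGS5, a pericyte marker, had a log2 fold change of 1.11 (SE 0.22, adjusted p 0.0686 by edgeR), NDUFA4L2 of 1.06 and ABCC9 of 0.87, and without that library they were at 1.38, 0.82 and 1.68. The part of these cells in the ACTA2 result was not tested.

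Markers of striated muscle and endothelium were read in the same way. The shares over all genes were 17.3% higher and 16.9% lower without overlap. They were 22.3% called higher and 19% called lower without replicate 1 with glutamine. Of 12 cardiac markers 9 were under 1 CPM in every library and MYL2 had 0 counts in all, which allows up to 0.0349 to 0.0384 CPM (3 counts in a library, for counting error only). Of the 9 cardiac markers kept by the filter, 2 were higher and 1 lower without overlap, and 2 were called higher and 1 lower without replicate 1 with glutamine. MYL7, an atrial myosin light chain, was at 0.19 CPM with and 0.72 CPM without, a log2 fold change of 1.88 (SE 0.43, adjusted p 0.0717 by edgeR, DESeq2 adjusted p 0.00158). The cardiac sum was 12.4 to 15.6 CPM with glutamine and 13.9 to 14.7 CPM without. TNNI1, at 9.11 and 9.06 CPM, made up most of it, so the sum says little about the other cardiac markers. Of 12 skeletal muscle markers 7 were kept, 3 were lower without overlap and 0 higher, 4 of the 7 were called lower without replicate 1 with glutamine, and the sum was 77.0 to 100.4 CPM with and 56.0 to 63.5 CPM without. MYF6, a myogenic factor, was at 2.93 ± 2.20 CPM with and 0.0778 ± 0.0589 CPM without, and MYOD1 had 0 counts in all libraries without. Of 6 endothelial markers 4 were lower without overlap, with a median of -1.07, and 4 were called lower and 1 higher without that library. KDR, a VEGF receptor, was at 58.8 ± 30.5 CPM with and 14.6 ± 2.58 CPM without.

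Kidney stroma and nephron progenitor markers had values on both sides of 0. Over all genes kept, 17.3% were higher and 16.9% lower without overlap, and the counts without overlap in both lists lie near those shares. Without replicate 1 with glutamine, 22.3% of all genes were called higher and 19% lower. Of 8 stromal markers 2 were higher and 2 lower without overlap, with a median of -0.04, and 3 were called higher and 3 lower without replicate 1 with glutamine. TCF21, a stromal transcription factor, was at 1.66 ± 1.99 CPM with glutamine and 9.04 ± 1.73 CPM without, while FOXD1, the stromal progenitor factor, was at 2.21 ± 1.24 and 0.576 ± 0.0599 CPM and NTN1 at 86.5 ± 53.1 and 14.5 ± 1.23 CPM. Without that library the log2 fold change of TCF21 moved from 2.43 to 4.13. The stromal markers' summed levels overlapped, at 705 to 890 CPM with and 635 to 816 CPM without. The nephron progenitor markers had 2 higher and 2 lower without overlap and a median of -0.02. Without that library 5 were called higher and 5 lower. Their sums were 812 to 945 CPM with and 866 to 1082 CPM without.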

How the data were processed

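The authors deposited raw counts per Ensembl gene, 1 column per library. The submitters' processing notes name cutadapt, Trim Galore, FastQC, STAR 2.5.2b, DESeq2 and the build GRCh38, with no role or order. The counting program, annotation and strand setting are not given in the sources used here. The sample descriptions gave each column its library. A deposited table of normalized values for these libraries was not used. Symbols matched 56104 of 60107 IDs, and GENCODE 29 positions 56531. Members and lists were chosen with earlier results of these data known.

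Genes were kept by filterByExpr (22613 genes, 99.95% of counts), scaled by TMM and tested with edgeR 4.0.16 (R 4.3.3), quasi-likelihood, legacy = FALSE, Benjamini-Hochberg threshold 0.05. The standard error is the absolute log2 fold change divided by the square root of F. Log2 CPM for r and positions used a prior count of 2. The test was checked on simulated counts. Alternatives were other scalings, filters, edgeR's legacy setting, DESeq2 1.42.0, limma-voom (limma 3.58.1), a replicate block, each library left out, and another gene length. Named genes are the 10 members, the 6 actins, and from each other list the 4 with the largest absolute log2 fold change at a mean of at least 1 CPM, plus the 6 most like ACTA2. SRF, MRTFA, MRTFB, FOS, FOSB, JUNB, EGR1, EGR2, EGR3, LUM, COL1A2, PDGFRA, CSPG4, MYL7, MYH9, CNN2, LMOD1, DES, WT1, SALL1, MYL2 and MYOD1 were named after their values were seen. Some genes that the rule names are not reported here.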

Additional observations from a re-analysis of the deposited data

How the results depend on the processing

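The count of 1 called gene was 0 under upper quartile scaling, library size only, edgeR's legacy setting and limma-voom, 2 with no filter and 3041 under DESeq2. With 1 library left out it ran from 0 to 9573, and 17 genes were called without replicate 1 of the group without glutamine. Of the 9 contractile genes other than ACTA2, 0 were called in the reported fit, 6 under DESeq2, and from 0 to 7 with 1 library left out: 7 without replicate 1 with glutamine and 1, TPM1, without replicate 1 without glutamine. The cause was not tested.

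Same-numbered libraries did not deviate together from their group means (correlations of deviations -0.02, 0.0001 and 0.03). Replicate 1 with glutamine stood apart and weighs on every deviation of its group, so this check cannot tell whether the numbers pair the libraries. With the replicate block 0 genes and 0 contractile genes were called, and the pericyte median was 0.772. The log2 fold change of ACTA2 stayed between 2.32 and 2.80 over 15 alternatives. Every contractile gene kept its sign in all of them. ACTB reversed, to -0.008 under upper quartile scaling and -0.08 without replicate 1 with glutamine, and its range with 1 library left out was -0.08 to 0.13.

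The SRF regulator median was 0.046 under upper quartile scaling. Skeletal muscle was -1.252 with no filter and -1.269 under DESeq2, where 12 genes enter, not 7, and 8 pericyte genes, not 6. Pericyte was 0.405 with no filter, 0.403 under DESeq2 and 0.777 under limma-voom. With 1 library left out, medians ran from 0.826 to 1.103 for the contractile genes, 0.072 to 0.126 for SRF regulators, 0.277 to 0.444 for SRF targets, 0.243 to 0.506 for TGF-beta and Notch, -0.202 to 0.052 for cardiac, -0.616 to -0.414 for skeletal muscle, 0.493 to 1.045 for fibroblast and 0.484 to 0.696 for pericyte. With the longest transcript as length, the muscle actins with glutamine made up 0.99% of the 6 actins. TPM1 and TPM2 levels with glutamine were then 149 and 444, and ACTA2 levels 33.8 with and 192 without. Genes with few counts, such as MYL7 and PLN, are limited by depth.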
